A study of Homo sapiens with 6 samples.

Results

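Antigen presentation and immune recognition ligands were followed as 42 genes chosen by name, and all 42 were found among the 58735 entries of the deposited gene table, with 1 entry each. They were grouped by role as class I (7 genes), peptide supply (11), class II and its regulators (15), stress ligands (5) and checkpoint ligands (4). RNA had been sequenced from cells labelled SKOV3, a human cell line established from ovarian cancer, in 3 libraries of floating spheres (FS, titled stem cells) and 3 libraries of sphere-differentiated cells (SDC, titled adherent cells). Floating spheres had grown in ultra-low-attachment plates in DMEM/F12 with 2% B27, a serum replacement, to which the study's methods add insulin and the growth factors EGF and bFGF. The SDC came from collected spheres that were put back into DMEM with 10% FBS and attached to the dish. The states therefore differ at once in serum, growth factors, basal medium, attachment and time in culture, and these cannot be told apart. The labels give no treatment and no genetic change for either state. The study says in general terms that its culture work was repeated with biological replicates, but the labels do not say whether the 3 libraries of a state came from separate cultures, so p values measure only the spread between these libraries.

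Class I molecules, made of a heavy chain such as HLA-B and the light chain beta-2-microglobulin, sit on most nucleated cells and show peptides cut from the cell's own proteins to CD8+ T cells. The peptides are cut by the proteasome, which can swap in immunoproteasome subunits, are carried into the endoplasmic reticulum by the TAP transporter and are trimmed and loaded there. Class II molecules (HLA-DR, -DQ and -DP) show peptides from endosomes to CD4+ T cells and are best known from professional antigen-presenting cells, although epithelial and tumour cells can express them, for example under interferon gamma. Ligands such as MICA and the ULBP proteins are read by the NKG2D receptor of natural killer cells, and checkpoint ligands such as CD274 (PD-L1) restrain T cells.

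Values are FPKM, fragments scaled to gene length and library size, as deposited. The fragments behind them, recovered from FPKM and gene length, numbered 14725462 to 16376331 per library. Across genes, libraries correlated at 0.928 to 0.952 among floating spheres, at 0.966 to 0.977 among SDC and at 0.841 to 0.906 between states. Of the genes that mark SKOV3, ERBB2, known to be amplified in this line, was at 6.56 to 9.47 FPKM in floating spheres and 8.01 to 10.2 FPKM in SDC. CDKN2A, known to be deleted in this line, was at 55.0 to 89.3 FPKM in floating spheres and 24.9 to 31.7 FPKM in SDC. Both levels go against the label, the identity of the line was not tested, and the libraries are meant throughout as labelled SKOV3. Leukocyte markers (5 genes, summed) stood at 0.530 to 1.10 FPKM in floating spheres and 0.0986 to 0.416 FPKM in SDC, with PTPRC at 0 in every library. CORO1A (0.290 to 0.429 against 0.0249 to 0.104 FPKM in SDC) and LCP1 (0.141 to 0.430 against 0.0413 to 0.120 FPKM) were higher in floating spheres without overlap. CD52 and ARHGDIB overlapped. B cell markers (5 genes) summed to 0.0783 to 0.288 FPKM in floating spheres and 0.154 to 0.392 FPKM in SDC, with MS4A1 at 0. Macrophage and dendritic cell markers (10 genes) summed to 8.46 to 16.1 FPKM in floating spheres and 8.69 to 11.6 FPKM in SDC, nearly all of it CD14, with CD163 at 0. ITGAX reached 0.858 FPKM in floating sphere replicate 2, against 0.0493 to 0.134 FPKM in SDC. CSF1R was lower in floating spheres without overlap. T and NK cell markers (6 genes) summed to 0.375 to 1.40 FPKM in floating spheres and 0.0570 to 0.541 FPKM in SDC, with CD2 and TRAC at 0. NKG7 reached 1.25 FPKM in floating sphere replicate 2, although its groups overlapped. Endothelial markers (3 genes) summed to 4.65 to 7.47 FPKM in floating spheres and 2.39 to 3.12 FPKM in SDC, nearly all of it PECAM1, with CDH5 at 0. PECAM1 was higher in floating spheres (limma, log2 difference 0.99, adjusted p = 0.00866).

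Of the 42 genes, 35 averaged 0.5 FPKM or more across the 6 libraries and were tested, and 14 of them rose, 4 fell and 17 had no call in floating spheres relative to SDC (limma, adjusted p under 0.05 over all 15719 genes tested). Among all genes tested, 33.6% were called, 15.8% higher and 17.8% lower, against 51.4% of these 35. The groups did not overlap for 25 of the 35, with 21 higher and 4 lower in floating spheres. Over all genes, the groups did not overlap for 51.6%, with 24.3% higher and 27.2% lower. Without SDC replicate 2 the counts were 10 higher and 3 lower, and without SDC replicate 3 they were 10 higher and 2 lower. Calls over all genes fell as well, from 2487 higher and 2792 lower. They were 1424 higher and 1594 lower without SDC replicate 2, and 1352 higher and 1454 lower without SDC replicate 3. The median log2 difference of the 35 genes was 0.53, beside 0.0032 over all genes tested. HLA-DQB1, HLA-DMB and CTSS reached the minimum only through the floating spheres and CD274 only through the SDC, so counts and medians over the 35 are descriptions. The remaining 7 genes, HLA-G, ERAP2, CD74, HLA-DPA1, HLA-DPB1, HLA-DQA1 and PDCD1LG2, were below the minimum and are given by their values. A log2 difference here is of FPKM plus 0.5, which understates the change of low genes, so the ratio of mean FPKM is given where genes are low. In bulk RNA, fewer cells of a type and less RNA per cell cannot be told apart. Values of 3 libraries are given in the order of replicates 1, 2 and 3, and means with the SD over 3 libraries.

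**Figure D1:**
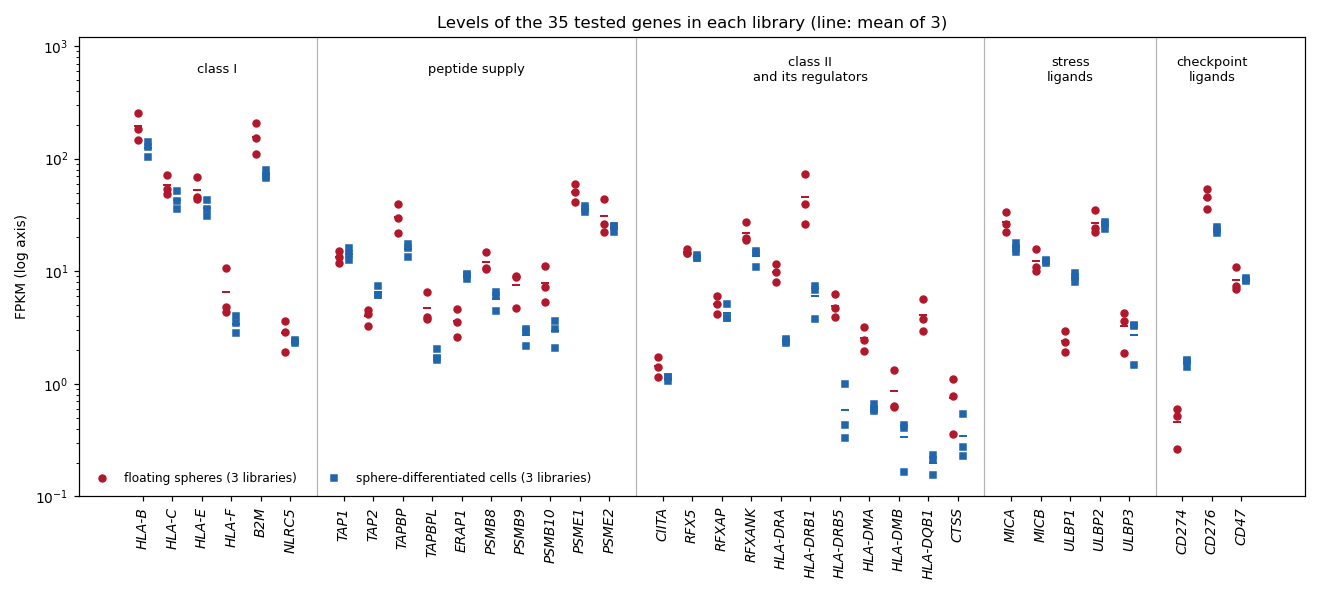
FPKM on a log axis for the 35 tested genes, with floating spheres as red circles, SDC as blue squares and a short line at each mean of 3 libraries. The class II genes from HLA-DRA to HLA-DQB1 stand apart between the states, except HLA-DMB, whose levels lie closer together, whereas MICB, ULBP2 and CD47 overlap.

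Among class I genes, B2M rose, and the other 5 tested genes were higher in the floating sphere mean without passing the test. B2M, the light chain of every classical class I molecule (chr15:44711487-44718877), had 154, 209 and 109 FPKM in floating spheres, against 67.8, 79.8 and 70.5 FPKM in SDC. Every floating sphere library lay above every SDC library, and the means were 157 ± 50.2 and 72.7 ± 6.26 FPKM. The log2 difference was 1.06 (SE 0.24, adjusted p = 0.0140). Without SDC replicate 1 or replicate 3 the adjusted p was 0.0519 or 0.0555, so the call was lost. The log2 difference changed little, at 1.01 and 1.04.

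HLA-B, a classical heavy chain and the highest of the 42 genes in both states, had 147, 255 and 185 FPKM in floating spheres, against 141, 103 and 128 FPKM in SDC. The groups did not overlap, but floating sphere replicate 1 lay close to the highest SDC library, and the log2 difference of 0.63 (SE 0.23) had an adjusted p of 0.0732. It was 0.0269 without floating sphere replicate 1 and 0.0464 with voom on the recovered fragments. HLA-C, the other classical heavy chain listed, had 48.9, 71.7 and 53.7 FPKM in floating spheres and 51.6, 35.6 and 41.9 FPKM in SDC, which overlap (log2 difference 0.42, adjusted p = 0.142). The 3 libraries of each state kept the same order for both heavy chains, with floating sphere replicate 2 highest and SDC replicate 2 lowest.

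HLA-E, the ligand of the NKG2A receptor of natural killer cells, had 43.4, 68.3 and 45.6 FPKM in floating spheres, against 42.7, 30.7 and 35.5 FPKM in SDC, a log2 difference of 0.51 (SE 0.21, adjusted p = 0.106). HLA-F, another non-classical heavy chain, had 4.77, 10.7 and 4.31 FPKM in floating spheres, against 3.49, 2.81 and 3.99 FPKM in SDC, a log2 difference of 0.75 (SE 0.32, adjusted p = 0.109). Neither group pair overlapped, and in both genes floating sphere replicate 2 stood above the other libraries. NLRC5, the transactivator of class I genes, had 3.65, 1.93 and 2.89 FPKM in floating spheres and 2.30, 2.39 and 2.45 FPKM in SDC, which overlap (log2 difference 0.17, adjusted p = 0.564). HLA-G, known from the placenta, had 0 fragments in every library, where 3 fragments, the limit that a count of 0 allows, would be 0.1001 to 0.1186 FPKM. Counted together, 1 of 6 tested class I genes rose and 0 fell, with 4 not overlapping and a median log2 difference of 0.57. Over all genes tested, 33.6% were called and the groups did not overlap for 51.6%. All 6 log2 differences were above 0, so none fell at an unadjusted p under 0.05. Reads of HLA heavy chains can be shared between near-identical genes, so the split between them is uncertain. Apart from that, 28.5% of the exon length of HLA-F and 18.9% of that of HLA-B overlap other genes. On the opposite strand lie the whole of that overlap for HLA-F and 17.8% of the exon length for HLA-B.

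**Figure D2:**
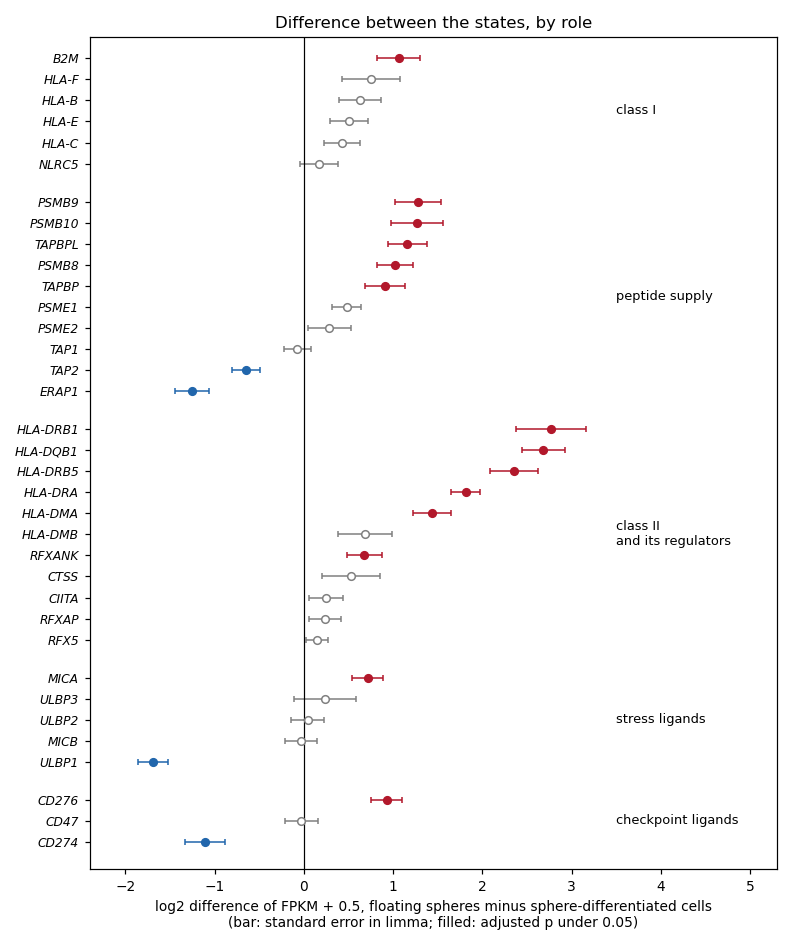
Log2 difference of FPKM plus 0.5, floating spheres minus SDC, for the 35 tested genes by role, with bars of 1 standard error (limma). Filled points passed an adjusted p of 0.05, red where higher and blue where lower in floating spheres, from HLA-DRB1 at 2.77 to ULBP1 at -1.69.

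Peptide supply split by step. The 3 immunoproteasome subunits and both tapasin genes rose in floating spheres, the trimming enzyme ERAP1 and the transporter chain TAP2 fell, and TAP1, PSME1 and PSME2 had no call. PSMB8 is the inducible catalytic subunit that replaces PSMB5. It had 14.95, 10.7 and 10.4 FPKM in floating spheres, against 6.05, 4.42 and 6.53 FPKM in SDC, a log2 difference of 1.02 (SE 0.20, adjusted p = 0.00862). PSMB9, which replaces PSMB6, had 9.05, 8.90 and 4.71 FPKM in floating spheres, against 2.92, 2.18 and 3.09 FPKM in SDC, a log2 difference of 1.28 (SE 0.26, adjusted p = 0.00976). PSMB10, which replaces PSMB7, had 11.2, 5.33 and 7.27 FPKM in floating spheres, against 3.65, 2.07 and 3.08 FPKM in SDC, a log2 difference of 1.27 (SE 0.29, adjusted p = 0.0143). For each of the 3, the lowest floating sphere library lay above the highest SDC library. Without SDC replicate 2 the adjusted p of PSMB10 was 0.0575. Exons of PSMB8 overlap PSMB8-AS1 and PSMB9 over 20.6% of their length, and exons of PSMB10 overlap another gene on the same strand over 34.8%, and no source used here says whether the counting used strand.

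The constitutive counterparts PSMB5, PSMB6 and PSMB7 had no call. PSMB7 had 85.6, 57.3 and 66.3 FPKM in floating spheres, against 88.5, 94.3 and 95.7 FPKM in SDC, with no overlap and a log2 difference of -0.43 (SE 0.17, adjusted p = 0.0955, and 0.0193 without floating sphere replicate 1), whereas PSMB5 and PSMB6 overlapped. The ratio of PSMB8 to PSMB5 was 0.182, 0.205 and 0.203 in floating spheres, against 0.0928, 0.102 and 0.119 in SDC, a log2 difference of 0.92. The ratio of PSMB9 to PSMB6 was 0.0798, 0.164 and 0.0809 in floating spheres, against 0.0388, 0.0383 and 0.0433 in SDC, a log2 difference of 1.35. That of PSMB10 to PSMB7 was 0.131, 0.0929 and 0.110 in floating spheres, against 0.0412, 0.0219 and 0.0322 in SDC, a log2 difference of 1.84. In all 3 ratios the states did not overlap, and the exact two-sided permutation test over the 20 labellings gave p = 0.1 for each, adjusted p = 0.1 over the 3, which is the smallest p that 3 against 3 allows. The immunoproteasome subunits stayed below their counterparts in every library. PSME1 and PSME2 encode the chains of the PA28 activator, which opens the proteasome. PSME1 had 59.6, 50.4 and 41.4 FPKM in floating spheres, against 35.7, 38.1 and 33.5 FPKM in SDC, with no overlap and an adjusted p of 0.0596 (log2 difference 0.48, SE 0.16). PSME2 had 44.2, 26.4 and 22.3 FPKM in floating spheres and 25.2, 22.5 and 25.1 FPKM in SDC, where floating sphere replicate 1 alone stood clear of the rest (log2 difference 0.29, adjusted p = 0.397).

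**Figure D3:**
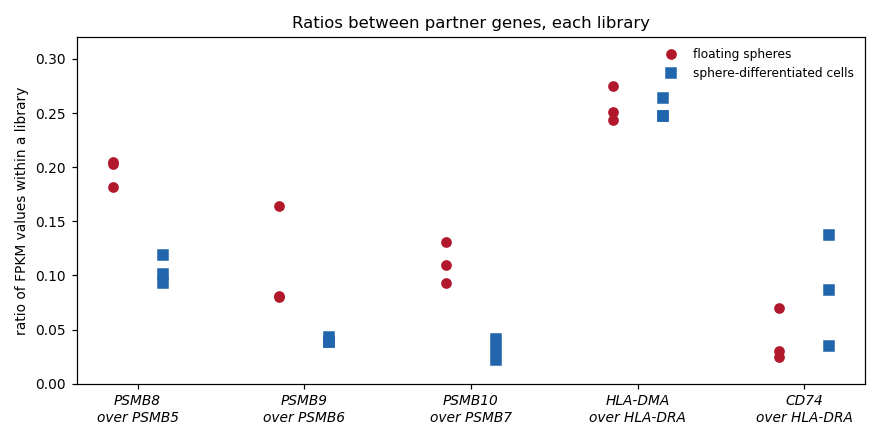
Ratio of FPKM values within each library for 5 gene pairs, with floating spheres as red circles and SDC as blue squares. The 3 proteasome ratios do not overlap between states, the ratio of HLA-DMA to HLA-DRA lies between 0.244 and 0.275 in all 6 libraries, and that of CD74 to HLA-DRA overlaps.

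The peptide transporter did not follow the immunoproteasome. TAP1 had 13.4, 15.2 and 11.9 FPKM in floating spheres and 16.0, 12.6 and 14.1 FPKM in SDC, which overlap (log2 difference -0.07, SE 0.15, adjusted p = 0.733). Its partner TAP2 had 4.57, 3.29 and 4.16 FPKM in floating spheres, against 6.12, 7.38 and 6.11 FPKM in SDC, with every floating sphere library lower (log2 difference -0.65, SE 0.16, adjusted p = 0.0197). The adjusted p of TAP2 was 0.0512, 0.0760 and 0.0638 without SDC replicates 1, 2 and 3, and 32.3% of its exon length overlaps a readthrough gene on the same strand. ERAP1, which trims peptides in the endoplasmic reticulum (chr5:96760810-96808100), had 4.60, 2.62 and 3.58 FPKM in floating spheres, against 8.52, 9.47 and 9.26 FPKM in SDC. Its means were 3.60 ± 0.990 and 9.08 ± 0.498 FPKM, with no overlap and a log2 difference of -1.25 (SE 0.19, adjusted p = 0.00381). Its relative ERAP2 was below the minimum, at 0.357 to 0.619 FPKM in floating spheres and 0.263 to 0.524 FPKM in SDC.

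Tapasin, encoded by TAPBP, bridges TAP and empty class I molecules. It had 21.8, 29.8 and 39.8 FPKM in floating spheres, against 17.5, 13.4 and 16.0 FPKM in SDC, a log2 difference of 0.91 (SE 0.23, adjusted p = 0.0208). TAPBPL encodes the related peptide editor TAPBPR, and had 6.51, 3.92 and 3.73 FPKM in floating spheres, against 1.62, 1.68 and 2.04 FPKM in SDC, a log2 difference of 1.16 (SE 0.22, adjusted p = 0.00783). Neither gene overlapped between states, and TAPBPL was the clearer, since the adjusted p of TAPBP was 0.0817 and 0.0641 without SDC replicates 2 and 3. Over peptide supply, 5 of 10 tested genes rose and 2 fell (3 and 1 without SDC replicate 2), with a median log2 difference of 0.69. Calls made up 70.0% of the 10, beside 33.6% of all genes tested. Floating sphere replicate 1 was the highest of the 3 floating sphere libraries for 8 of these 10 genes.

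PSMB9 and TAP1 lie head to head in the class II region of chromosome 6, with their RefSeq starts 488 bases apart, and are shown because a neighbouring pair differed in its call. Their promoter windows, 300 bases each, most of them before the start, in RefSeq on GRCh38.p14, meet at their outer ends, PSMB9 at chr6:32853942-32854241 on the plus strand and TAP1 at chr6:32853655-32853954 on the minus strand. Capitals mark the core of the interferon-stimulated response element (ISRE), GAAANNGAA or TTCNNTTTC, and the interferon gamma activated site (GAS), TTCNNNGAA.
PSMB9: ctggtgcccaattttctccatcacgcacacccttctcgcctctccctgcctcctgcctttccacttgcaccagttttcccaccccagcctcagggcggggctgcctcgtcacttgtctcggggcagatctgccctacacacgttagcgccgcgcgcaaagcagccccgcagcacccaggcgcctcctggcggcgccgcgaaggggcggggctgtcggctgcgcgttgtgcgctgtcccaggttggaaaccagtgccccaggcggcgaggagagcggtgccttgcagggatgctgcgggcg
TAP1: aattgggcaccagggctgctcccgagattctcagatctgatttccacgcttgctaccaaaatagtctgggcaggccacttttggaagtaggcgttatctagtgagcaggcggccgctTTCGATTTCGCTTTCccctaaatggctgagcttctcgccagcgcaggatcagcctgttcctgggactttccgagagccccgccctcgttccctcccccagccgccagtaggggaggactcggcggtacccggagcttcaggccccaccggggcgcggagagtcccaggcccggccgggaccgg
The TAP1 window shown holds a pair of overlapping ISRE cores, a second RefSeq window of TAP1 (chr6:32852712-32853011) holds no ISRE core and 1 GAS, and the PSMB9 window holds no ISRE core and no GAS. The ISRE pair of TAP1 lies between the starts of both genes, upstream of PSMB9 too, but beyond the end of the PSMB9 window. Its absence from that window therefore does not set the genes apart. RefSeq windows were found for 36 of the 42 genes, some with more than 1 window, and not for HLA-E, NLRC5, CIITA, HLA-DRA, CTSS and PDCD1LG2. An ISRE core stood in at least 1 window of 18 of the 36 genes, 9 of 11 in peptide supply, against 9.86% of all 27305 RefSeq gene symbols, whose 35116 windows were searched on both strands. A GAS stood in 4 of the 36 genes, against 9.38% of all gene symbols. A match describes the letters and is no evidence of a bound factor.

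Class II genes held the largest differences among the 42 genes. In floating spheres, both DR chains, HLA-DQB1 and HLA-DMA rose, whereas the class II transactivator CIITA had no call and the invariant chain CD74 overlapped between states. Over all genes tested, 33.6% were called, 15.8% higher in floating spheres, and the groups did not overlap for 51.6%, 24.3% higher. Of 11 tested genes in class II and its regulators, 6 rose and 0 fell, 9 did not overlap, and the median log2 difference was 0.68. That median depends on the setting, with 1.28 without floating sphere replicate 2, where 9 genes were tested, 1.13 with 0.1 FPKM added, 1.02 on TPM, where 13 were tested, and 1.34 with voom. All 11 log2 differences were above 0, so 0 genes fell at an unadjusted p under 0.05 as well, with limma or with voom. HLA-DQB1, HLA-DMB and CTSS reached the minimum mean only through the floating spheres, so the filter itself favoured a positive difference for them. The counts and the median, which is the value of HLA-DMB, are therefore descriptions.

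HLA-DRB1 is the main DR beta chain. It had 26.2, 72.6 and 39.3 FPKM in floating spheres, against 7.40, 3.74 and 6.82 FPKM in SDC. The means were 46.0 ± 24.0 and 5.99 ± 1.96 FPKM, a ratio of 7.69, and the lowest floating sphere library lay above the highest SDC library (log2 difference 2.77, SE 0.39, adjusted p = 0.00290). HLA-DRB5, a second DR beta gene that only some haplotypes carry, had 6.25, 4.72 and 3.92 FPKM in floating spheres, against 1.00, 0.332 and 0.434 FPKM in SDC (log2 difference 2.35, SE 0.27, adjusted p = 0.00160). Fragments of HLA-DRB5 numbered 132, 97 and 84 in floating spheres, against 20, 6 and 9 in SDC, so its SDC values rest on few fragments. The genes are close copies and reads can be assigned to either. Summed over both, fragments numbered 671, 1553 and 904 in floating spheres, against 164, 72 and 147 in SDC, a ratio of 7.75 after scaling to library size.

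HLA-DRA, the near-invariant DR alpha chain, had 8.02, 11.7 and 9.79 FPKM in floating spheres, against 2.32, 2.51 and 2.42 FPKM in SDC. The means were 9.83 ± 1.84 and 2.42 ± 0.0936 FPKM, a ratio of 4.07 (log2 difference 1.81, SE 0.16, adjusted p = 7.6e-04). The 3 SDC libraries lay close together and below every floating sphere library. HLA-DQB1, the DQ beta chain, had 2.93, 5.61 and 3.80 FPKM in floating spheres, against 0.232, 0.156 and 0.211 FPKM in SDC. Its fragments numbered 241, 449 and 317 in floating spheres, against 18, 11 and 17 in SDC. The ratio of means was 20.6, the largest among the called genes, and the log2 difference was 2.68 with 0.5 FPKM added (SE 0.25, adjusted p = 7.9e-04) and 4.28 with voom on the fragments, where no FPKM is added. HLA-DQA1, the DQ alpha chain, was below the minimum, with 21, 118 and 82 fragments in floating spheres (0.181, 1.04 and 0.697 FPKM) and 3, 7 and 9 in SDC (0.0273, 0.0705 and 0.0789 FPKM). Its groups did not overlap either, and in a fit without the filter its log2 difference was 0.95 (SE 0.31, adjusted p = 0.102).

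HLA-DM takes the CLIP peptide out of new class II molecules so that others can bind. HLA-DMA had 1.95, 3.22 and 2.46 FPKM in floating spheres, against 0.573, 0.660 and 0.599 FPKM in SDC, a ratio of means of 4.16 (log2 difference 1.43, SE 0.21, adjusted p = 0.00315). HLA-DMB had 0.641, 1.32 and 0.620 FPKM in floating spheres, against 0.434, 0.165 and 0.405 FPKM in SDC, with no overlap and no call (log2 difference 0.68, SE 0.30, adjusted p = 0.121). The ratio of HLA-DMA to HLA-DRA was 0.244, 0.275 and 0.251 in floating spheres and 0.247, 0.264 and 0.248 in SDC, a log2 difference of 0.02 (exact permutation test, p = 0.7, adjusted p = 0.7 over 2 ratios). These overlap, the test cannot go below 0.1, and with 0.5 FPKM added to both genes the difference was -0.38.

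CD74, the invariant chain that blocks the groove of new class II molecules, was low in every library, with 30, 15 and 16 fragments in floating spheres (0.562, 0.289 and 0.296 FPKM) and 16, 4 and 11 in SDC (0.317, 0.0876 and 0.210 FPKM). The groups overlapped. The ratio of CD74 to HLA-DRA was 0.0701, 0.0247 and 0.0302 in floating spheres and 0.137, 0.0350 and 0.0867 in SDC, a log2 difference of -0.996 (exact permutation test, p = 0.2, adjusted p = 0.4). That difference was -0.56 without SDC replicate 1 and -1.54 without SDC replicate 2. HLA-DRA stood above CD74 in all 6 libraries. HLA-DPA1 and HLA-DPB1, the DP chains, were at or near 0, with 0.0533 to 0.197 and 0 to 0.395 FPKM in floating spheres, and 0 to 0.0330 and 0.0218 to 0.113 FPKM in SDC. HLA-DPB1 overlapped between states, whereas HLA-DPA1 did not, with 19, 5 and 7 fragments in floating spheres against 3, 0 and 0 in SDC. In a limma fit without the filter, the log2 difference of HLA-DPA1 was 0.24 (SE 0.10, adjusted p = 0.186). CTSS, the protease that cuts CD74, had 0.776, 1.10 and 0.362 FPKM in floating spheres and 0.538, 0.231 and 0.273 FPKM in SDC, which overlap (log2 difference 0.53, adjusted p = 0.239).

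Of the 4 regulators, RFXANK rose and CIITA, RFX5 and RFXAP had no call. CIITA, the class II transactivator, had 1.14, 1.41 and 1.73 FPKM in floating spheres, against 1.05, 1.14 and 1.14 FPKM in SDC. Floating sphere replicate 1 lay just above the highest SDC library, and the log2 difference of 0.25 (SE 0.19) had an adjusted p of 0.346. RFX5, RFXAP and RFXANK encode the RFX complex, which binds class II promoters. RFXANK had 19.0, 19.6 and 27.7 FPKM in floating spheres, against 15.2, 10.9 and 14.6 FPKM in SDC, and was called (log2 difference 0.68, SE 0.20, adjusted p = 0.0354). That call was lost without floating sphere replicate 3 and without any 1 of the SDC replicates, with adjusted p of 0.0603 to 0.116, and on TPM, at 0.0764. RFX5 had 15.8, 14.6 and 14.4 FPKM in floating spheres, against 13.2, 14.0 and 13.1 FPKM in SDC, with no overlap but a small difference (log2 difference 0.15, SE 0.12, adjusted p = 0.366). RFXAP had 4.20 to 6.03 FPKM in floating spheres and 3.82 to 5.14 FPKM in SDC, which overlap. Exons of CIITA and RFXANK overlap other genes over 23.4% and 23.3% of their length.

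Promoters of 4 class II genes that rose are shown because class II genes share a promoter module whose Y box, an inverted CCAAT sequence, is bound by the factor NF-Y. All are RefSeq windows on GRCh38.p14 and on the minus strand, HLA-DRB1 at chr6:32589799-32590098, HLA-DRB5 at chr6:32530238-32530537, HLA-DQB1 at chr6:32666608-32666907 and HLA-DMA at chr6:32953048-32953347. Capitals mark the Y box core ATTGG, or CCAAT on the other strand, in all 4, and the ISRE core in HLA-DRB1 and HLA-DRB5.
HLA-DRB1: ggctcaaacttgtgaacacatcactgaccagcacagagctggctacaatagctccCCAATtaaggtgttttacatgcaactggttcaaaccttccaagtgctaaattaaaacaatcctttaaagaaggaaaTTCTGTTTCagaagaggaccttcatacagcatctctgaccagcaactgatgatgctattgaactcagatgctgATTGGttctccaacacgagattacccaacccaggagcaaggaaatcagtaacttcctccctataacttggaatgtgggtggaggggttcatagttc
HLA-DRB5: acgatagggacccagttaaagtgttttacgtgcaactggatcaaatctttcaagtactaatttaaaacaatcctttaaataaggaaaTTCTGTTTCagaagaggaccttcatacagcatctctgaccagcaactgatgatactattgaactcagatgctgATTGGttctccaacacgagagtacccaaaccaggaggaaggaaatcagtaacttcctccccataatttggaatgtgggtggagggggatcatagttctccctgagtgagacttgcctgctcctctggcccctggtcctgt
HLA-DQB1: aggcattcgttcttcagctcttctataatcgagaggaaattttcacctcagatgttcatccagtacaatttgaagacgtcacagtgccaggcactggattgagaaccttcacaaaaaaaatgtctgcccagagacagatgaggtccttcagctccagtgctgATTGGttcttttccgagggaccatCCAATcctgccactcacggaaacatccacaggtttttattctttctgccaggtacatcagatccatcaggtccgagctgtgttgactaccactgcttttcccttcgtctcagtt
HLA-DMA: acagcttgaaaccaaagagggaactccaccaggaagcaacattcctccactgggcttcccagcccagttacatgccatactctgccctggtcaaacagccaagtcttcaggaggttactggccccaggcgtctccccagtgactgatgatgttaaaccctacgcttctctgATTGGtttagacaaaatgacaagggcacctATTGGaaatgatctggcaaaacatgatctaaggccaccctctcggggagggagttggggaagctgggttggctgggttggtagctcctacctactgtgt
ATTGG begins 46 bases before the start in HLA-DRB1, 90 in HLA-DRB5 and 88 in HLA-DQB1, and at 79 and 49 bases in HLA-DMA. A Y box core stood in a window of 9 of the 12 genes of class II and its regulators found in RefSeq, and of 21 of all 36, against 39.7% of all gene symbols. The core of the X2 box, TGACG or CGTCA, stood in 6 of those 12 and 15 of the 36, against 28.4% of all gene symbols. CD74 and HLA-DPB1, which did not stand apart between the states, hold a Y box core too.

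The span from HLA-DRA to HLA-DPB1 (chr6:32439842-33087201 on hg38, 647360 bases) holds 20 protein-coding genes, of which 11 were tested, 7 rose, 1 fell and 3 had no call. Over all genes tested, 15.8% were called higher and 17.8% lower. Within the span, the genes that rose were interleaved with genes that did not. BRD2, a chromatin reader that lies between HLA-DMA and HLA-DOA, had 35.02 to 43.2 FPKM in floating spheres and 38.6 to 39.4 FPKM in SDC. TAP1 and TAP2 lie to either side of PSMB8 and PSMB9. HLA-DOA, which with HLA-DOB forms a brake on HLA-DM, had 0 FPKM in every library, and HLA-DOB had 0.0304 to 0.207 FPKM in floating spheres and 0.0346 to 0.181 FPKM in SDC.

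**Figure D4:**
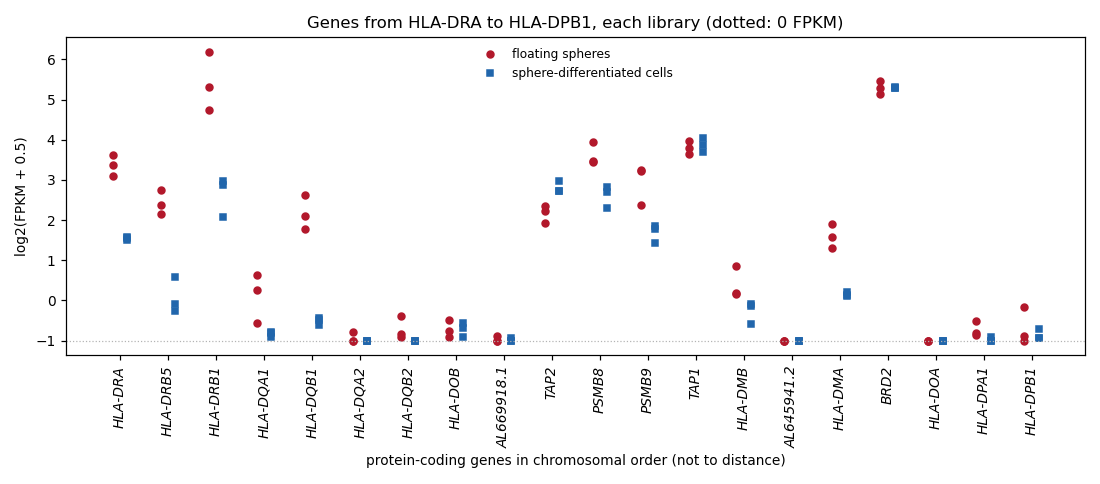
Log2 of FPKM plus 0.5 in each library for the 20 protein-coding genes from HLA-DRA to HLA-DPB1, in chromosomal order and not to distance, with floating spheres as red circles, SDC as blue squares and a dotted line at 0 FPKM. The DR and DM genes, HLA-DQA1, HLA-DQB1, PSMB8 and PSMB9 lie higher in floating spheres, TAP2 lies lower, TAP1 and BRD2 overlap, and HLA-DQA2, HLA-DQB2 and the DP and DO genes lie near the dotted line.

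The stress ligands did not move as a group. MICA rose, ULBP1 fell, and MICB, ULBP2 and ULBP3 overlapped between states. MICA, a class I-like ligand of NKG2D (chr6:31399784-31415315), had 26.2, 33.6 and 22.2 FPKM in floating spheres, against 18.0, 14.8 and 16.1 FPKM in SDC, with no overlap (log2 difference 0.71, SE 0.18, adjusted p = 0.0202). Without SDC replicate 2 or replicate 3 its adjusted p was 0.0781 or 0.0767. ULBP1, a ligand of the same receptor (chr6:149964007-149973710), had 1.94, 2.93 and 2.34 FPKM in floating spheres, against 7.96, 8.83 and 9.59 FPKM in SDC. Its means were 2.40 ± 0.498 and 8.79 ± 0.817 FPKM, and every floating sphere library lay below every SDC library (log2 difference -1.69, SE 0.17, adjusted p = 0.00101).

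MICB, the close relative of MICA, had 10.2, 15.8 and 10.8 FPKM in floating spheres and 12.7, 12.4 and 11.9 FPKM in SDC, a log2 difference of -0.03 (SE 0.18). ULBP2 had 24.3, 34.7 and 22.2 FPKM in floating spheres and 27.2, 24.0 and 26.2 FPKM in SDC, a log2 difference of 0.04 (SE 0.19). ULBP3 had 4.23, 1.86 and 3.63 FPKM in floating spheres and 3.32, 1.48 and 3.26 FPKM in SDC, a log2 difference of 0.23 (SE 0.35). For MICB and ULBP2, floating sphere replicate 2 was the highest library. The other floating spheres lay below every SDC library for MICB but not for ULBP2, and for ULBP3 replicate 2 was the lowest of its state in both states. Of the 5 stress ligands, 1 rose and 1 fell, with a median log2 difference of 0.04, and ULBP2 and MICA were the highest in floating spheres. Calls made up 40.0% of the 5, near the 33.6% of all genes tested.

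The checkpoint ligands went both ways. CD276 (B7-H3), a B7 family protein common on tumour cells (chr15:73683966-73714518), had 45.8, 54.0 and 35.7 FPKM in floating spheres, against 24.7, 21.7 and 23.2 FPKM in SDC. The means were 45.2 ± 9.18 and 23.2 ± 1.53 FPKM, with no overlap (log2 difference 0.93, SE 0.17, adjusted p = 0.00746). CD274 (PD-L1), the ligand of PD-1 (chr9:5450503-5470566), was low, with 18, 40 and 36 fragments in floating spheres (0.261, 0.597 and 0.516 FPKM), against 92, 95 and 108 in SDC (1.41, 1.61 and 1.60 FPKM). Every floating sphere library lay below every SDC library, with means of 0.458 ± 0.175 and 1.54 ± 0.110 FPKM and a log2 difference of -1.11 (SE 0.23, adjusted p = 0.00984). It was -1.82 with voom on the fragments, and without SDC replicate 3 the adjusted p was 0.0518. CD274 reached the minimum mean only through the SDC, so the filter itself favoured a negative difference for it. CD47, the signal to macrophages not to engulf, had 7.36, 10.9 and 6.96 FPKM in floating spheres and 8.14, 8.75 and 8.36 FPKM in SDC, a log2 difference of -0.03 (SE 0.18, adjusted p = 0.924). PDCD1LG2 (PD-L2), below the minimum, had 5, 5 and 10 fragments in floating spheres and 12, 6 and 6 in SDC.

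The CD274 promoter window (RefSeq, GRCh38.p14, chr9:5450292-5450591, plus strand) is shown because this gene fell while the immunoproteasome genes rose, with the same capitals as for TAP1, ISRE core and GAS.
CD274: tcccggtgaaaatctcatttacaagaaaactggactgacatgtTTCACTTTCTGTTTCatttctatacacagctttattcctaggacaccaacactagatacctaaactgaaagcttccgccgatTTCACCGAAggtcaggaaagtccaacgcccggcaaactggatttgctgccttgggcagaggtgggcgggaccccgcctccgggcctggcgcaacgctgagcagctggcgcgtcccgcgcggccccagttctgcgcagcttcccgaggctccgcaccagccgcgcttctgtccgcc
It holds a pair of overlapping ISRE cores and 1 GAS, at 207, 201 and 125 bases before the start.

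Libraries of one state were not alike over these genes. Floating sphere replicate 2 was the highest floating sphere library for 19 of the 35 tested genes, including 5 of 6 class I, 6 of 11 class II and regulator genes, 4 of 5 stress ligands and 3 of 3 checkpoint ligands, whereas replicate 1 led in peptide supply. SDC replicate 2 was the lowest SDC library for 20 of the 35. The part of these library differences in the results was not tested beyond leaving out each library. HLA-B and B2M were the highest of the 42 genes in both states.

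Of 71 further pathway genes, 56 were tested, 8 rose and 11 fell, with a median log2 difference of -0.07 and 33.9% called. That share was close to the 33.6% called over all genes tested. In the interferon input, 12 genes were tested, 1 rose and 2 fell, 25.0% called beside 33.6% of all genes tested. STAT2, a transcription factor of the type I interferon signal, had 13.4 ± 0.964 FPKM in floating spheres and 6.38 ± 0.596 FPKM in SDC (log2 difference 1.02). JAK1, a kinase of interferon receptors, had 26.99 ± 4.55 FPKM in floating spheres and 48.2 ± 4.10 FPKM in SDC (log2 difference -0.84). SOCS1, a feedback inhibitor, was lower in floating spheres as well (log2 difference -0.77). IRF1, a transcription factor induced by interferon, had a mean of 3.41 FPKM in floating spheres and 4.74 FPKM in SDC. IRF9, on the same list, went the other way, with means of 1.10 and 0.357 FPKM. Its groups did not overlap (limma, log2 difference 0.83, adjusted p = 0.0894), and it reached the minimum only through the floating spheres. IRF1, IRF9 and the receptor chains IFNGR1, IFNGR2 and IFNAR1 had no call, and IFNG had 0 FPKM in every library.

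In class I folding and loading, 8 genes were tested and 37.5% called, beside 33.6% of all genes tested. THOP1, a cytosolic peptidase, was higher (log2 difference 0.70), and the proteases SPPL3 (-0.82) and LNPEP (-0.57) were lower in floating spheres. Of 10 constitutive proteasome genes, only the activator PSME4 was called, lower at -0.47. PSMC1, on the same list, was higher in floating spheres without overlap but had no call (limma, log2 difference 0.57, adjusted p = 0.0790). Its adjusted p was 0.0434 without floating sphere replicate 2, and 75.8% of its exon length overlaps another gene. In class II endosomal processing and class II promoter factors, 11 genes were tested, 2 rose and 2 fell, which is 36.4% called. NFYA, a subunit of NF-Y, was higher (0.46), and another subunit, NFYB, was lower (-0.78), as was SPPL2A, a protease that clears CD74 remnants (-0.63). Of 15 other recognition ligands tested, 4 rose and 4 fell, 53.3% called beside 33.6% of all genes tested. PVR, the CD155 ligand of DNAM-1 and TIGIT, had 24.9 ± 1.95 FPKM in floating spheres and 75.9 ± 3.98 FPKM in SDC (log2 difference -1.59). NCR3LG1, the B7-H6 ligand of NKp30, and the adhesion ligand ICAM1 were lower too, at -1.43 and -1.25. Without SDC replicates 1, 2 and 3 the counts over the 56 genes were 3, 2 and 3 higher and 7, 5 and 5 lower. Of the 13 called genes named here, STAT2, JAK1, NFYB, PVR, NCR3LG1 and ICAM1 kept their call without each library, and the other 7 lost it without SDC replicate 2 and without SDC replicate 3, with adjusted p of 0.0565 to 0.136.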

How the data were processed

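RNA sequencing libraries were made with a NEBNext Ultra kit per the labels, whose processing notes list hg38, featureCounts 1.5.0-p3 and DESeq2 1.20.0. The study's methods name edgeR for testing. No source used here gives the aligner, the annotation release or the use of strand. The authors deposited FPKM values, 1 column per library, for 58735 entries, and because these are not counts the main test was limma 3.58.1, run in R 4.3.3, and not the count test of the study. Titles call the groups stem cells and adherent cells, and the labels describe them as floating spheres and cells differentiated from them, the names used here.

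Genes averaging 0.5 FPKM or more across the 6 libraries were fitted on log2 of FPKM plus 0.5, with group as the only term and an intensity trend in the moderation. Differences are floating sphere minus sphere-differentiated, tests were two-sided, and Benjamini-Hochberg adjustment ran over all 15719 genes at 0.05. Ratios within a library were compared by exact permutation tests over 20 labellings. FPKM times the merged exon length in GENCODE release 29 gave whole fragments within 0.01 for 100.0% of values with a known length, and these summed to 96.2 to 103% of the library total that the FPKM imply. For a value of 0 the floor was 3 fragments in each library, a limit for counting error only. Promoter windows came from RefSeq.

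The 42 genes and all gene and marker lists were chosen with earlier results of these data known. Genes were named by rule, which took all 42. Of the further pathway lists, the rule took up to 3 tested genes with the smallest adjusted p per list, called or not. It also took the counterparts PSMB5, PSMB6 and PSMB7. IRF1, IRF9, the interferon receptor chains, IFNG, BRD2, the HLA-DO genes and single marker genes were also named, once values had been seen. The alternatives were other pseudocounts, filters, scalings, a replicate block, no trend, voom on recovered fragments and leaving out each library, 16 in all. The script was tested on simulated data.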

Additional observations from a re-analysis of the deposited data

How the results depend on the processing

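Of the 18 called genes, 11 kept their call under each of the 16 alternatives that tested them (TAPBPL, ERAP1, PSMB8, PSMB9, HLA-DRA, HLA-DRB1, HLA-DRB5, HLA-DMA, HLA-DQB1, ULBP1 and CD276). The other 7 lost it in at least 1 alternative, with highest adjusted p (limma) of 0.0555 for B2M, 0.0760 for TAP2, 0.0817 for TAPBP, 0.0575 for PSMB10, 0.116 for RFXANK, 0.0781 for MICA and 0.0518 for CD274. HLA-B and PSME1, with no call, were called in some, with lowest adjusted p of 0.0269 and 0.0309. No called gene changed sign. Without a filter, 12 of the 41 genes with a fit were higher and 4 lower. No scaling moved the median of all genes by over 0.1, with shifts of -0.08 on TPM and -0.01 after quantile normalization.

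Deviations of same-numbered libraries correlated at -0.02, -0.07 and -0.04 across genes, so no shared deviation was seen. The labels do not say whether same-numbered libraries shared a culture. These correlations cannot decide it, since a shared culture need not leave a shared deviation. With a replicate block, 14 genes were higher and 3 lower, and peptide supply had 1 lower, where TAP2 had an adjusted p of 0.0562. At a minimum mean of 5 FPKM, all genes gave 1478 higher, class II and its regulators 3 higher and checkpoint ligands 0 lower, since fewer genes were tested. With voom, class I had 2 higher. Pathway genes outside the 42 had 4 higher and 7 lower with no filter and 5 higher on TPM. The HLA-DMA to HLA-DRA difference was -0.10 and -0.38 with 0.1 and 0.5 FPKM added to both. Leaving out 1 library gave 1352 to 2479 higher and 1454 to 2861 lower among all genes, 10 to 15 higher and 2 to 4 lower among the 42, 0 to 2 higher in class I, 3 to 6 higher and 1 to 2 lower in peptide supply, 0 to 1 higher in stress ligands, 0 to 1 lower in checkpoint ligands, and 2 to 11 higher and 5 to 13 lower among pathway genes. It gave -0.030 to 0.058 for the HLA-DMA to HLA-DRA difference. Genes with no call that changed sign were MICB (0.016) and CD47 (0.027) under quantile normalization and ULBP2 on TPM (-0.032). Leaving out 1 library gave log2 differences of -0.0061 to 0.38 for NLRC5, -0.16 to 0.012 for TAP1, -0.22 to 0.083 for MICB, -0.15 to 0.17 for ULBP2, -0.080 to 0.53 for ULBP3, -0.22 to 0.087 for CD47, -0.056 to 0.30 for PSMB5 and -0.26 to 0.27 for PSMB6. For the sum of HLA-DRB1 and HLA-DRB5 fragments, added after the values were seen, the log2 difference was 2.92. The causes of these shifts were not tested. With 3 libraries per state, no exact test can go below 0.1, and genes with few fragments, such as CD74, HLA-DPA1 and PDCD1LG2, are not resolved at this depth.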

Other observations

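Among recognition ligands outside the 42 genes, NT5E, the ectoenzyme CD73 that makes adenosine, had 6.58, 19.7 and 6.67 FPKM in floating spheres, against 2.54, 2.83 and 2.88 FPKM in sphere-differentiated cells (limma, log2 difference 1.64, adjusted p = 0.0167). Floating sphere replicate 2 stood far above the rest, and without it the floating sphere mean of NT5E was 6.63 FPKM and the log2 difference 1.13. Its adjusted p was 0.0532 and 0.0598 without sphere-differentiated replicates 1 and 2. CD59, an inhibitor of the complement attack complex, averaged 23.4 FPKM in floating spheres and 11.8 FPKM in sphere-differentiated cells (log2 difference 0.91, adjusted p = 0.0221), whereas CD55, another complement inhibitor, averaged 139.8 FPKM in floating spheres and 230.5 FPKM in sphere-differentiated cells and had no call (adjusted p = 0.0529). RAET1G, a further ligand of NKG2D, was higher in floating spheres (log2 difference 0.94), and VSIR, which encodes the checkpoint protein VISTA, was lower (-0.71). The call of CD59 was lost without any 1 sphere-differentiated library (adjusted p 0.0534 to 0.0753), that of VSIR likewise and without floating sphere replicate 3 (0.0521 to 0.0850), and that of RAET1G held without each library, while CD55 was called without floating sphere replicate 2 (0.0117). These genes were chosen after their values were seen.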
